A study of Mus musculus with 6 samples.

Results

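The vascular endothelial growth factor (VEGF) family was examined in the cerebella of newborn mice as 8 genes, chosen by name from the 54532 genes of the count table. They were 5 ligands (*Pgf*, *Vegfa*, *Vegfb*, *Vegfc* and *Vegfd*) and 3 receptor tyrosine kinases (*Flt1*, *Kdr* and *Flt4*). All 8 were in the table once and all 8 passed the filter on low counts, which kept 17505 genes. Whole cerebella at postnatal day 1 were profiled by bulk RNA sequencing with 3 control and 3 mutant libraries, named by their labels. The controls were Tox3f/f littermates without Cre, and the mutants were Nestin-cre;Tox3f/f conditional knockouts. Both groups thus carried the floxed *Tox3* allele, which the study derived from a tm1a allele with FLP recombinase. The comparison asks which transcripts differ when *Tox3*, a high mobility group box transcription regulator, is deleted in the nervous system. Nestin-Cre expresses Cre recombinase in neural progenitors and their descendants. Since every mutant and no control had this transgene, its own effect and that of losing *Tox3* cannot be told apart.

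VEGF ligands are secreted dimers that bind receptor tyrosine kinases found mainly on endothelial cells. VEGF-A acts through VEGFR2 (*Kdr*), the main signalling receptor for vessel sprouting, while VEGFR1 (*Flt1*) binds VEGF-A tightly and signals weakly, and placental growth factor (*Pgf*) and VEGF-B bind VEGFR1 but not VEGFR2. VEGF-C and VEGF-D act mainly through VEGFR3 (*Flt4*), which is best known for lymphatic growth. In the developing brain, neural cells supply VEGF-A to the vessels that grow in from the surrounding plexus.

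Total counts on genes lay between 15391854 and 17178478 per library, at which 3 counts equal at most 0.196 CPM, the count scaled to a normalized library total. The labelled tissue carried cerebellar markers in every library, including *Barhl1*, a granule neuron progenitor (GNP) transcription factor, at 307 ± 17.8 CPM in controls and 51.1 ± 2.86 in mutants (SD, n = 3 each). *Tox3* itself had 64.3, 63.0 and 64.4 CPM in controls and 55.3, 63.2 and 59.2 in mutants, with a log2 fold change of -0.11 ± 0.06 (SE) and a Benjamini-Hochberg adjusted p of 0.252 in the quasi-likelihood test of edgeR, which gave every adjusted p below. Counts over the whole gene therefore did not check the genotype labels, and the groups are named as labelled. Both sexes occurred in each group, but not in balance. *Ddx3y*, a gene of the Y chromosome, had 94.5, 0 and 0 CPM in controls and 71.3, 0 and 68.6 in mutants. Choroid plexus RNA differed widely between the mutants, with *Ttr*, the transthyretin gene, at 131, 101 and 67.7 CPM in controls and 181, 6.06 and 711 in mutants 1, 2 and 3. The labels call the libraries separate samples without saying more, so the p-values measure the spread between these samples.

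A gene was called at an adjusted p under 0.01 with a log2 fold change beyond 0.5 in either direction. Of the 8 genes, *Pgf* was called lower in mutants and 0 were called higher, where 3.63% of all tested genes were called lower and 3.03% higher. The groups did not overlap in any library for 5 of the 8 genes, which were lower in mutants for *Pgf*, *Vegfc* and *Kdr* and higher for *Vegfa* and *Vegfb*. Among all tested genes the groups did not overlap for 40.5%, and 5 genes of 8 are too few to set apart from that background. Log2 fold changes of the 8 genes had a median of -0.13, against -0.01 over all tested genes.

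**Figure D1:**
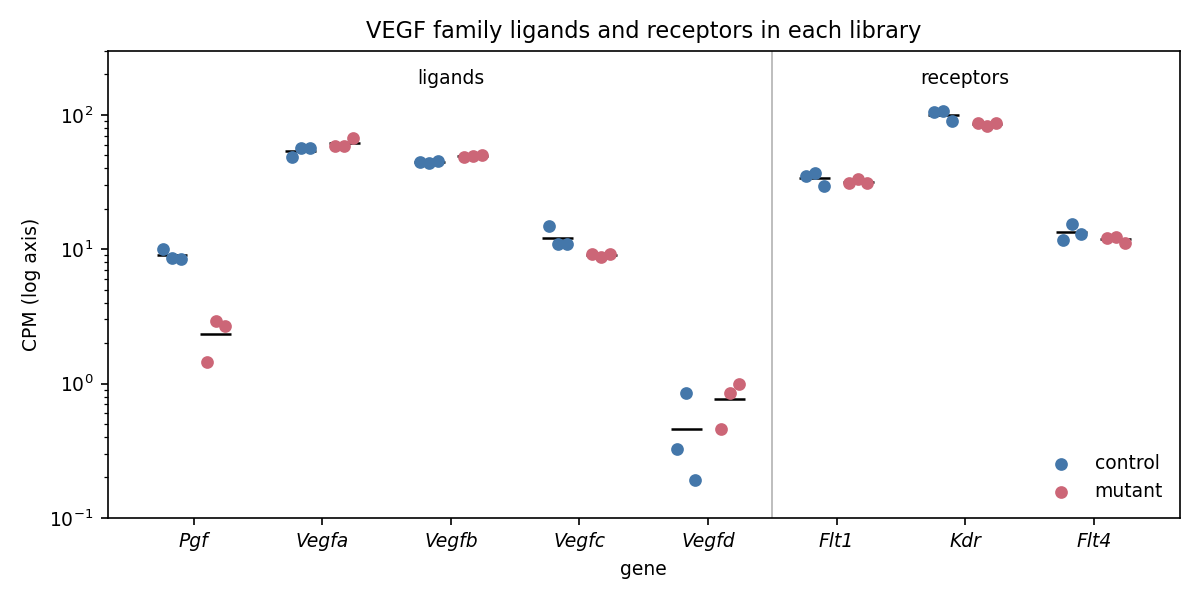
CPM of each gene in each library on a log axis, with blue points for the 3 control and red points for the 3 mutant libraries and black lines at the group means. *Pgf* is the gene with a wide gap between the groups, 8.48 to 10.1 CPM in controls against 1.44 to 2.93 in mutants.

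*Pgf* encodes placental growth factor. The gene (ENSMUSG00000004791) lies on the minus strand of chromosome 12 at 85166635 to 85177790 in GRCm38 and has 4 annotated transcripts. Its raw counts were 155, 132 and 132 in controls and 25, 45 and 43 in mutants. In CPM these were 10.1, 8.59 and 8.48 in controls and 1.44, 2.93 and 2.68 in mutants. Every mutant library was below every control library, and mutant 1 was the lowest of all. *Pgf* fell by 1.95 ± 0.24 (SE) on the log2 scale, with a 95% interval from -2.48 to -1.42 and an adjusted p of 3.59e-04 by edgeR. The mutant level was 25.9% of the control level, with an interval from 17.9% to 37.3%. By size this was rank 37 among the 635 genes called lower. In the fit without mutant 1 the log2 fold change was -1.69. The study had placed *Pgf* among GNP-enriched genes that are lower in these mutants, so its fall here is not independent of that list. In bulk RNA, fewer cells of a type and less RNA per cell cannot be told apart.

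The E-box, the 6-letter pattern CANNTG that basic helix-loop-helix factors bind, was searched in the RefSeq promoter windows (GRCm38.p6, 300 bases, from 250 before to 50 after a start) of the 8 genes, all of which matched. This pattern reads the same on both strands. The *Pgf* windows held the 3 matches below, printed 5′ to 3′ on the minus strand as 26 bases with the matching letters in capitals, to show what lies at the starts of the gene that was called.
Pgf, chr12:85176059-85176084: gagctcccacCAGCTGatcaccctcc
Pgf, chr12:85175948-85175973: ggattacaagCACTTGggaacacaag
Pgf, chr12:85177536-85177561: ccagaagagcCAGGTGcaaccttggc
The first match began 92 bases before and the second 20 bases after the start of one window, and both lay in an exon of a retained-intron transcript. The third began 238 bases before the start of the other window, in an untranslated exon of a protein-coding transcript. CANNTG occurred in 7 of the 10 windows of the 8 genes and in 72.3% of 32851 promoter windows, and CAGCTG, one of its forms, in 16.3% of them. The matches are a description of these letters and not of binding.

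*Vegfa*, the principal angiogenic ligand, lies on chromosome 17 at 46016993 to 46032369 on the minus strand. It had 48.6, 56.4 and 56.8 CPM in controls and 58.9, 58.1 and 67.6 in mutants. Each mutant was above each control, though mutant 2 exceeded the highest control only slightly, and mutant 3 was the highest. The log2 fold change was 0.19 ± 0.09 (SE) with an adjusted p of 0.134 by edgeR, and the mutant level was 114% of control with an interval from 100% to 130%. Without mutant 3 or without control 1 the log2 fold change was 0.12. Mutant 3 was also the library with the most *Ttr*, and the summed level of the 8 choroid plexus markers was 71.3 to 124 FPKM (fragments scaled by gene length and library total) in controls and 161, 13.0 and 603 FPKM in mutants 1, 2 and 3, with none of the 8 at 0 in all libraries. The part of choroid plexus RNA in the *Vegfa* value was not tested.

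*Vegfb*, a VEGFR1 ligand studied mainly in heart and muscle, lies on chromosome 19 at 6982473 to 6987651 on the minus strand. Its levels were 44.6, 43.9 and 45.5 CPM in controls and 48.9, 49.8 and 49.8 in mutants. The groups were tight and did not overlap. It was higher in mutants by 0.15 ± 0.06 (SE) on the log2 scale, with an interval from 0.01 to 0.29 and an adjusted p of 0.117 by edgeR, so the gene did not pass.

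*Vegfc*, the main lymphangiogenic ligand, lies on chromosome 8 at 54077606 to 54187096 on the plus strand. It had 14.9, 10.9 and 10.9 CPM in controls and 9.17, 8.73 and 9.16 in mutants. All mutants were below all controls, and control 1 stood above the other controls. A log2 fold change of -0.44 ± 0.14 (SE) had an interval from -0.76 to -0.11 and an adjusted p of 0.0518 by edgeR. Without control 1 it was -0.27, smaller by over 1.5 times.

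*Vegfd*, the other VEGFR3 ligand, lies on chromosome X at 164373378 to 164402650 on the plus strand and was close to the limit of detection. Its raw counts were 5, 13 and 3 in controls and 8, 13 and 16 in mutants. The groups overlapped, and control 3 was at 3 counts. The log2 fold change of 0.74 ± 0.57 (SE) had an interval from -0.54 to 2.02, so neither direction could be told at this depth. Without control 2 the value was 1.53, and without control 3 it was 0.38.

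The receptors all had a negative sign and none was called. *Kdr*, on chromosome 5 at 75932827 to 75978458 on the minus strand, had 105, 107 and 89.4 CPM in controls and 86.5, 83.2 and 86.6 in mutants. All mutants were below all controls, with control 3 close to them. The log2 fold change was -0.23 ± 0.07 (SE), with an interval from -0.39 to -0.08 and an adjusted p of 0.0371 by edgeR, and the mutant level was 85.1% of control. That is past 0.05, as 25.1% of all tested genes were, but short of both thresholds used for calls.

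*Flt1*, on chromosome 5 at 147561604 to 147726011 on the minus strand, encodes VEGFR1, the receptor that placental growth factor binds. It had 34.8, 37.1 and 29.7 CPM in controls and 30.9, 33.2 and 31.0 in mutants. The groups overlapped, and both the highest and the lowest library were controls. Its log2 fold change was -0.10 ± 0.09 (SE), with an interval from -0.31 to 0.11 and an adjusted p of 0.496 by edgeR. It was -0.18 without control 3 and -0.03 without control 2.

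*Flt4*, which encodes VEGFR3, lies on chromosome 11 at 49609263 to 49652739 on the plus strand. It had 11.7, 15.4 and 13.0 CPM in controls and 12.1, 12.3 and 11.1 in mutants, again with overlap. For this gene the log2 fold change was -0.17 ± 0.12 (SE), with an interval from -0.45 to 0.10 and an adjusted p of 0.349 by edgeR. It was -0.06 without control 2 and -0.26 without control 1.

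**Figure D2:**
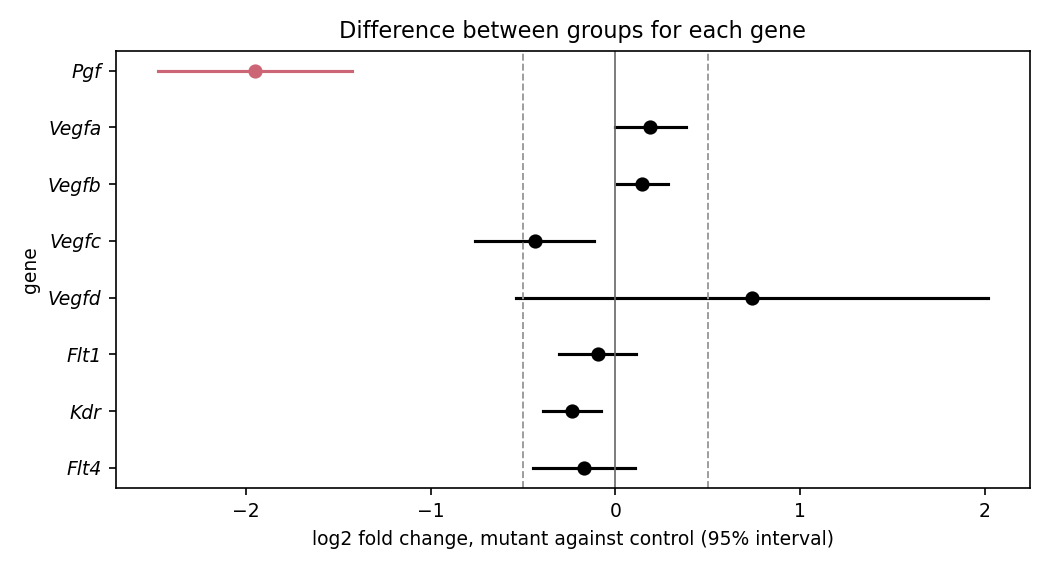
Log2 fold change of mutant against control for each gene, with bars for the 95% interval of the fit, red for the called gene and dashed lines at the fold threshold of 0.5. The interval of *Pgf* ends at -1.42 and lies wholly beyond the threshold, while *Vegfd* has the widest interval, from -0.54 to 2.02.

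Levels of different genes were compared per length, in the deposited FPKM. In controls the order was *Vegfb* at 27.6 ± 0.488, *Vegfa* at 12.5 ± 1.07, *Kdr* at 11.0 ± 1.06, *Vegfc* at 4.94 ± 0.942, *Pgf* at 3.09 ± 0.305, *Flt1* at 2.49 ± 0.277, *Flt4* at 1.60 ± 0.227 and *Vegfd* at 0.187 ± 0.142 FPKM (SD, n = 3). *Vegfa* and *Kdr* were the only neighbours in this order whose control libraries overlapped. In mutants *Pgf*, at 0.805 ± 0.271 FPKM, was below *Flt4*, at 1.43 ± 0.0697 FPKM, and above *Vegfd*, at 0.317 ± 0.114 FPKM.

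The ligand mixture was then described by the share of each ligand in the summed FPKM of the 5. *Pgf* made up 7.12%, 6.13% and 5.95% in controls and 1.02%, 2.04% and 1.78% in mutants. Every mutant was below every control, and the difference of the means was -4.79 percentage points. An exact two-sided permutation test over the 20 arrangements of the libraries gave p = 0.1, the smallest that 3 against 3 allows, and the adjusted p over the 3 ratios tested was also 0.1. *Vegfb* made up 56.7% to 57.8% in controls and 59.8% to 62.7% in mutants, and *Vegfa* 23.2% to 27.2% and 27.4% to 30.4%. The summed ligand FPKM was 48.4, 47.9 and 48.6 in controls and 48.5, 49.0 and 51.8 in mutants, so the groups overlapped in the sum.

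**Figure D3:**
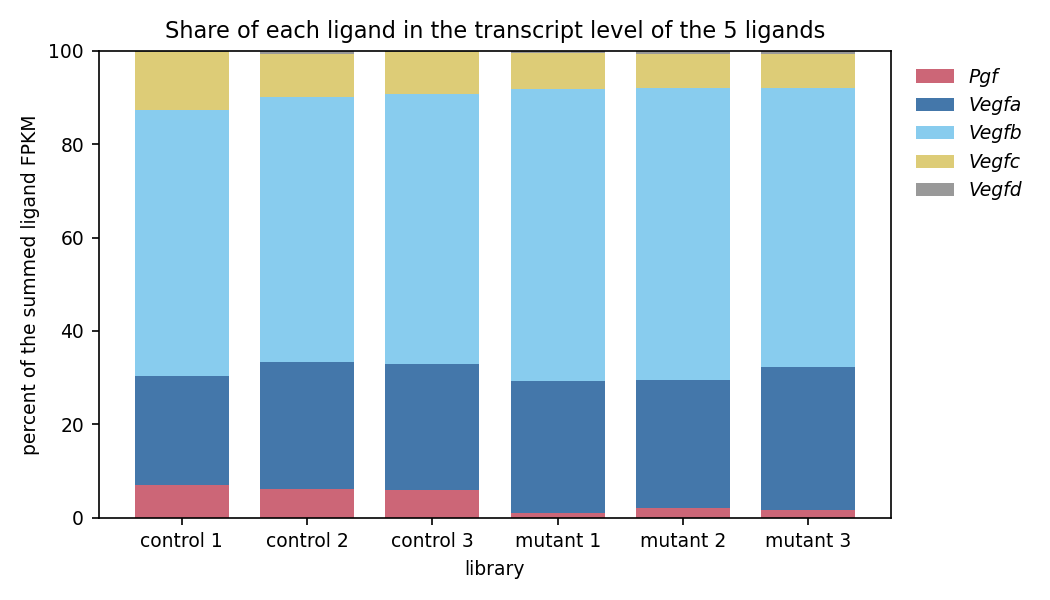
Percent of the summed FPKM of the 5 ligands taken by each ligand, one bar per library. The *Pgf* part at the base of each bar shrinks from 5.95% to 7.12% in controls to 1.02% to 2.04% in mutants, and *Vegfb* is the largest part in all 6 libraries.

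The ratio of *Pgf* to *Vegfa* in FPKM was 0.306, 0.225 and 0.220 in controls and 0.0361, 0.0745 and 0.0584 in mutants. The ratio of *Flt1* to *Kdr* was 0.222, 0.231 and 0.222 in controls and 0.239, 0.267 and 0.239 in mutants. Neither ratio overlapped between groups, with a difference of the means of -0.194 for the first and 0.0229 for the second, and both had the smallest exact permutation p of 0.1. Without mutant 2, the highest library, the difference in the ratio of *Flt1* to *Kdr* was 0.0137.

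Markers of the cells that carry the receptors were measured beside them. None of 16 endothelial markers was called, 10 had a negative sign, and their median log2 fold change was -0.09. *Cldn5* and *Cdh5*, a tight junction and an adherens junction gene of endothelium, were the 2 most abundant at 70.5 and 16.1 FPKM in controls and 66.4 and 17.4 in mutants. The summed endothelial FPKM ranged from 185 to 194 in controls and from 174 to 183 in mutants, with no marker at 0. Per 100 FPKM of these markers, *Kdr* was 6.16, 6.08 and 5.30 in controls and 5.48, 5.07 and 5.22 in mutants. The groups overlapped only because control 3 lay below mutant 1, and this scale depends on the markers summed. The summed FPKM of 10 mural cell markers ranged from 89.8 to 98.7 in controls and from 113 to 121 in mutants. *Vtn*, the only 1 called, rose with a log2 fold change of 0.69, from a mean of 29.0 to 46.8 FPKM. *Rgs5*, the most abundant in controls, had means of 33.3 FPKM in controls and 30.4 in mutants. In this list 3 of the 10 had a negative sign. The part of vessel cell number in the receptor values was not tested.

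For *Pgf*, the GNP markers moved alongside. All 11 had a negative sign and 8 were called lower, with a median log2 fold change of -0.62, but the list holds genes that the study names as lower in these mutants, and which samples set its choice is not stated for all of them, so it is not taken as independent evidence of direction. Their summed FPKM was 279 to 299 in controls and 133 to 140 in mutants, with no marker at 0 in all libraries, and *Barhl1* and *Sema7a* were the 2 most abundant. Per 100 FPKM of the GNP markers, *Pgf* was 1.15, 1.05 and 1.03 in controls and 0.357, 0.751 and 0.655 in mutants. The groups did not overlap on this scale either, but the scale depends on the markers summed. *Atoh1* and *Barhl1*, with log2 fold changes of -6.40 and -2.59, fell more than *Pgf*. The other markers fell less, *Hhip* least at -0.02. The part of GNP number in the fall of *Pgf* was not tested.

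The 3 tested genes with the profile most like that of *Pgf*, by mean absolute difference of centred log2 CPM over the 6 libraries, were *9130024F11Rik* at 0.19, *St18* at 0.21 and *2600014E21Rik* at 0.23, against a median of 0.97 over all tested genes. *St18*, which encodes a zinc finger transcription factor, had 87.9 ± 3.90 CPM in controls and 27.9 ± 2.85 in mutants (SD, n = 3). The other 2 were far less abundant, at 3.39 and 1.36 CPM in controls. The scarcer, *2600014E21Rik*, had 0.115 CPM in mutant 1, which is under 3 counts. With an adjusted p of 0.0188 by edgeR it was not itself called. Of the 14 tested genes within 250000 bases of *Pgf*, 0 were called, and their log2 fold changes ranged from -0.75 to 0.39. No gene in the table overlapped any of the 8 genes.

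**Figure D4:**
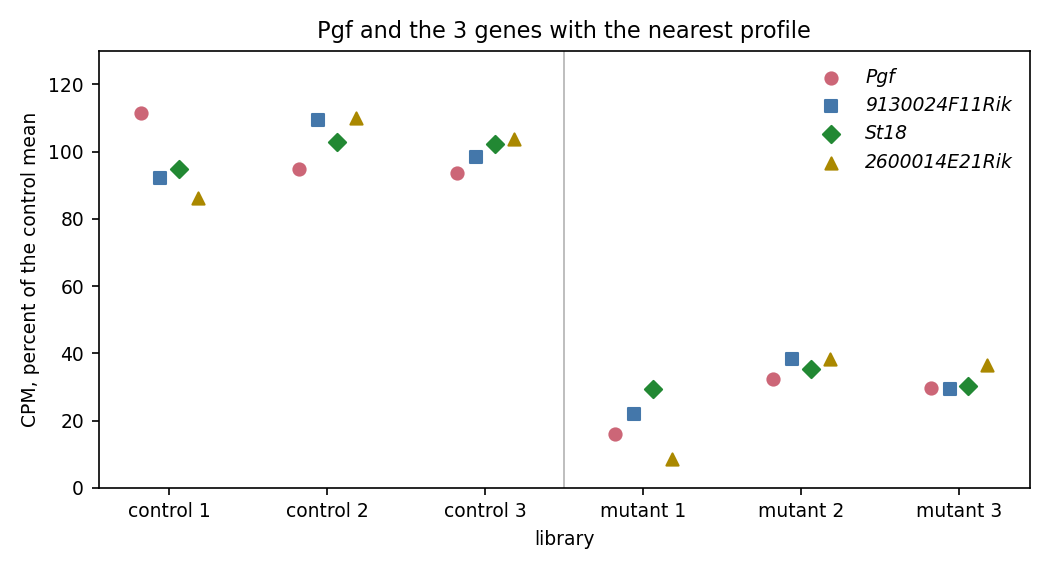
CPM of *Pgf* and of the 3 genes with the nearest profile in each library, as a percent of the mean of the 3 controls. All 4 genes lie between 86.1% and 111% in controls and between 8.48% and 38.4% in mutants, a likeness that follows from how they were chosen. The 8.48% is *2600014E21Rik* in mutant 1, at under 3 counts.

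Other genes of the pathway were taken from lists. Among 9 co-receptors and receptor partners 0 were called, and their median log2 fold change was 0.10. The smallest p values belonged to *Efnb2*, an ephrin that takes part in VEGF receptor uptake, with a log2 fold change of 0.29 ± 0.06 (SE), and to *Nrp2*, a neuropilin co-receptor of VEGFR3, with 0.35 ± 0.08. At adjusted p of 0.00903 and 0.0122 in edgeR's test, both were short of a threshold. *Nrp1*, the VEGF-A co-receptor, had 19.0 ± 0.848 CPM in controls and 20.7 ± 2.42 in mutants.

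Among 8 genes of ligand processing, 2 were called lower and 0 higher, with a median log2 fold change of -0.09. *Ccbe1*, which enables the cleavage of VEGF-C by ADAMTS3, fell from 16.4 ± 0.995 to 9.04 ± 1.87 CPM, a log2 fold change of -0.86. *Adamts1*, a secreted metalloprotease that binds VEGF-A, fell from 60.4 ± 1.52 to 31.8 ± 5.11 CPM, a log2 fold change of -0.92. *Adamts3* itself, the protease, was higher in each mutant than in any control, at 38.5 ± 4.89 against 56.3 ± 13.5 CPM, with a log2 fold change of 0.55 and an adjusted p of 0.0272 by edgeR, and was not called.

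Of 28 signal transducers downstream of the receptors 27 were tested and 0 were called, with a median of -0.04. The 2 smallest p values belonged to *Bcar1*, a docking protein of focal adhesions, at -0.496, and *Map2k1*, the kinase MEK1, at 0.496, both just inside the fold threshold with adjusted p of 2.68e-04 and 5.23e-04 by edgeR's test. *Hspb1*, a small heat shock protein gene, was past the fold threshold at 0.75 but had an adjusted p of 0.0103 by edgeR. Among 12 genes known to be induced by VEGF in endothelium, 3 were called lower and 0 higher, and the median was 0.10. *Unc5b*, a netrin receptor of tip cells and neurons, fell from 57.2 ± 1.86 to 33.3 ± 2.48 CPM. *Dusp5*, a nuclear ERK phosphatase, fell from 42.8 ± 4.67 to 26.2 ± 2.67 CPM, and *Apln*, the apelin gene, from 16.8 ± 2.51 to 9.68 ± 2.06 CPM. Their log2 fold changes were -0.78, -0.71 and -0.79, while 8 of the 12 genes had a positive sign and 4 a negative one. Among those 8, *Dll4* was higher in each mutant than in any control, at 0.40 with an adjusted p of 0.0143 by edgeR, and was not called. The list does not show which cells made these transcripts, and a change in VEGF response was not tested.

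Hypoxia is a known inducer of *Vegfa*, and 16 genes of the HIF pathway were read beside it. *Egln3*, an oxygen sensor, and *Ndrg1*, a stress-responsive gene, were called higher with log2 fold changes of 0.53 and 0.51, and 0 were called lower. The list's median was 0.08, with 9 genes of positive and 7 of negative sign. In the related PDGF family, *Pdgfc* fell by 0.53 and *Pdgfd* rose by 0.88 on the log2 scale, and the other 4 of the 6 ligands and receptors were not called.

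**Figure D5:**
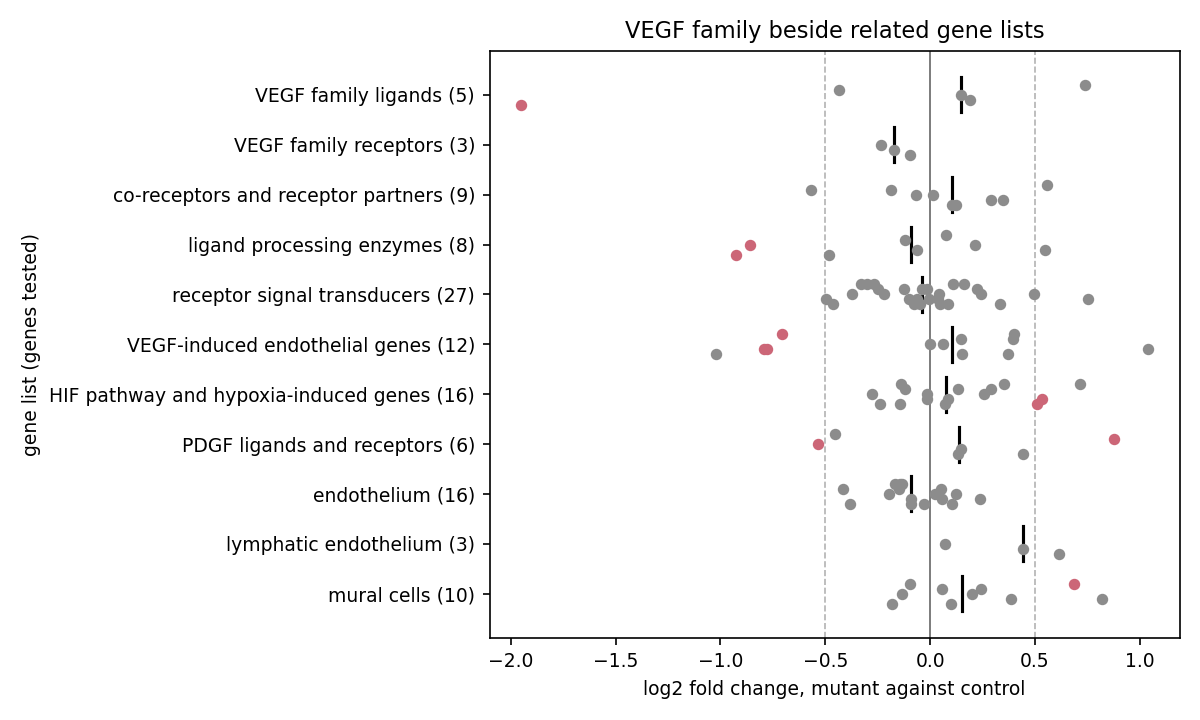
Log2 fold change of every tested gene in the VEGF family and in 9 related lists, with red points for called genes, black lines at list medians and dashed lines at 0.5 in either direction. *Pgf*, at -1.95, lies lowest of the genes shown, and the list medians range from -0.17 for the receptors to 0.44 for the lymphatic markers.

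The lymphatic list was read beside *Vegfc*, *Vegfd* and *Flt4*. Of its 4 markers 3 were tested, 0 were called and none had a negative sign. The summed FPKM of the 4 was 21.0 to 22.4 in controls and 27.8 to 29.2 in mutants. *Pdpn* was the largest part, at a mean of 14.5 FPKM in controls and 19.7 in mutants. The untested *Ccl21a* had at most 2 counts in a library for the entry read. The list does not show which cells made these transcripts. In other lists that could hold sources of the ligands, 3 of 10 meningeal markers, 1 of 7 microglial markers, 3 of 8 astroglial markers, 6 of 8 oligodendrocyte lineage markers and 6 of 8 Purkinje cell markers were called higher and 0 lower. *Pdgfra*, the only oligodendrocyte lineage marker with a negative sign, was at -0.45 with an adjusted p of 3.07e-04 by edgeR, inside the fold threshold. Of 7 tested granule neuron markers 4 were called lower, and of 5 tested erythrocyte markers 0 were called. Of 8 choroid plexus markers 7 had a positive sign, and the list's median log2 fold change was 1.18. Only *Otx2*, which is also a GNP gene, was called, with a log2 fold change of -1.16. The part of these shifts in the values of the 8 genes was not tested.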

How the data were processed

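Bulk mRNA of cerebella was analysed in 6 libraries, grouped by label. The number of cerebella per library is not given in the sources used here. The authors deposited raw counts per gene, made with HISAT2 2.0.5 on mm10 and featureCounts 1.5.0-p3, and FPKM values, which the authors obtained by scaling counts to gene length and depth. The annotation release, strand setting and treatment of multi-mapping reads are not given in the sources used here. Coordinates of the 8 genes equalled those of GENCODE for GRCm38.

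From the counts, edgeR 4.0.16 in R 4.3.3 (filterByExpr, TMM, glmQLFit, glmQLFTest, Benjamini-Hochberg adjustment) was fitted over all 17505 tested genes, with a common dispersion of 0.0105. CPM values are TMM-normalized. Ratios of FPKM were compared by exact permutation. Libraries of a group differed by more than sampling noise.

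The members and lists were chosen with earlier results of these data known. Genes named were the 8 members, called genes of each pathway list or otherwise the 2 with the smallest p, the 2 most abundant genes of marker lists set beside a result, the 3 nearest profiles of a called member, and *Tox3*. *Ttr*, *Nrp1*, *Vtn*, *Otx2*, *Adamts3*, *Hspb1*, *Dll4*, *Ddx3y*, *Atoh1*, *Hhip*, *Ccl21a* and *Pdgfra* were named after their values were seen. Alternatives were DESeq2 1.42.0, limma 3.58.1 on log2(FPKM + 1) and log2(FPKM + 0.1), other normalizations, filters and thresholds, a Y-chromosome covariate, a replicate block and each library left out.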

Additional observations from a re-analysis of the deposited data

How the results depend on the processing

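*Pgf* was called lower, and none of the other 7 genes was called in either direction, under all 19 alternatives. The log2 fold change of *Pgf* ranged from -2.13 to -1.19, the latter with limma on log2(FPKM + 1), which understates low genes, and its adjusted p from 1.21e-14 to 0.00835. Each of the 8 genes kept its sign in every alternative run for it; *Vegfd* could not be fitted where 10 counts were required in every library. *Kdr* had an adjusted p of 0.00695 without control 3, 0.00799 with the Y-chromosome covariate and 0.00815 with every gene of at least 1 count, and its log2 fold change, -0.31 at its lowest, was inside the fold threshold in all alternatives. *Vegfc* passed the fold threshold with the Y-chromosome covariate, at -0.503 with an adjusted p of 0.0104 by edgeR. It also did so without control 2, at -0.513, and without control 3, at -0.515.

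The number of all tested genes called lower, 635, became 286 with limma on log2(FPKM + 1) without a filter, 145 with glmTreat against 0.5 and 1268 with no fold threshold. The number called higher, 530, became 330 with limma on log2(FPKM + 1), 176 without a filter, 30 with glmTreat, 1147 with no fold threshold and 838 at an adjusted p under 0.05. With each library left out, 492 to 778 were called lower and 349 to 569 higher, the 349 without mutant 3. The cause of these shifts was not tested beyond what each threshold does by construction.

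The main fit did not treat the replicate numbers as pairs. Deviations of same-numbered libraries correlated at 0.24, 0.26 and -0.16, and those of other control and mutant pairs between -0.42 and 0.27. These few values cannot settle whether the numbers pair the samples. With the number as a block, 696 genes were called lower and 561 higher, *Pgf* was at -1.97, and the call of no member changed. Depth limits *Vegfd*, with 3 to 16 counts per library, and the intervals of the other genes rest on 3 libraries a group.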
